A study of Mus musculus with 6 samples.

Results

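The erythroid miRNAs described here are the 3 mature products of the locus of miR-144 and miR-451a (miR-451a, miR-144-3p and miR-144-5p) and the 4 mature products of miR-486a and miR-486b (miR-486a-5p, miR-486a-3p, miR-486b-5p and miR-486b-3p). They were chosen by name, and all 7 were present among the 1907 distinct miRNAs of the deposited table. Small RNA libraries had been made from liver of 12-week-old C57BL/6N mice on a chow diet, 3 females and 3 males. The animals were described as normal, littermates and collected together, and no transgene, deletion or treatment was named for either sex. Total counts were 5756418, 3506853 and 3285249 in females and 6426337, 4617647 and 16444674 in males.

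The locus of miR-144 and miR-451a is switched on by the transcription factor GATA1 as red cell precursors mature. Its miR-451a hairpin is too short for Dicer and is cut by the Argonaute protein AGO2, whereas miR-144 is a standard Dicer product with 2 arms. The miR-486 hairpin lies in Ank1, the gene of ankyrin-1, which anchors the red cell membrane skeleton, and miR-486 is also known in muscle. Mature red cells keep these miRNAs after losing the nucleus, so blood inside an organ can carry them into its RNA. The sources used here do not say whether the livers were flushed of blood, and the table holds no globin or other red cell transcript against which the erythroid origin could be checked. In bulk tissue fewer cells of a type and less RNA per cell cannot be told apart.

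The mature sequences of that locus are shown because their seeds, the bases that pair with targets, differ from each other. Capitals mark bases 2 to 8, the seed, and sequences are RefSeq's on GRCm38.p6, which matched 3 of the 7 names.
miR-451a: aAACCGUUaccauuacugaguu
miR-144-3p: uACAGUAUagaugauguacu
miR-144-5p: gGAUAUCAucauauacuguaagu
The hairpins are shown to contrast the arms, with the mature parts in capitals.
Mir144: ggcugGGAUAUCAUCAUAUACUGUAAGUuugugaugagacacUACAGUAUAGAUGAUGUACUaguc
Mir451a: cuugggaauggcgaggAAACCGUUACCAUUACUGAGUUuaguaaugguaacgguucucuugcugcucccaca
In the 66-base Mir144 hairpin the arms occupy positions 6 to 28 and 43 to 62, and in the 72-base Mir451a hairpin the single mature product runs from position 17 to 38. No other name among the 1679 mature miRNAs of the RefSeq table has the bases 2 to 8 of any of these 3. Over bases 2 to 7 only, miR-144-3p shares ACAGUA with the abundant liver miRNA miR-101a-3p.

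Both hairpins of the locus lie on the plus strand of chromosome 11 (mm10), Mir144 at chr11:78073005-78073070 and Mir451a at chr11:78073170-78073241, with 99 bases between them and no other host gene in the GENCODE M21 annotation. On the minus strand, Mir451b has the same span as Mir451a. Its mature product miR-451b does not overlap that of miR-451a and had 1, 1 and 2 counts in females against 1, 0 and 2 in males. The miR-486a arms lie on the plus strand of chromosome 8, in an intron of Ank1, with miR-486a-5p from 23142587 to 23142608 and miR-486a-3p from 23142629 to 23142649. The miR-486b hairpin, named Mir3107 in the annotation, lies opposite, so that miR-486b-5p (23142627 to 23142648, minus strand) shares 20 positions with miR-486a-3p, and miR-486b-3p (23142587 to 23142606) shares 20 with miR-486a-5p.

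The deposited estimates held fractional counts for the overlapping names miR-486b-5p and miR-486a-3p. Whether the overlap caused them was not tested. In female replicate 1 the table holds 40.8978 counts of miR-486b-5p and 2.10219 of miR-486a-3p, which sum to 43 within 2e-05. In male replicate 1 it holds 43.8537 and 2.14632, which sum to 46 within the same tolerance. In male replicate 3 miR-486a-3p stands at 1.45e-42 beside 109 counts of miR-486b-5p. The fractional parts of the overlapping names thus add up to whole reads, and the levels of miR-486b-5p and miR-486a-3p are uncertain as separate quantities. The other 3 libraries list miR-486a-3p at 0, and miR-486b-3p is at 0 in every library. By counting error alone, a count of 0 allows up to 3 counts, for miR-486b-3p between 0.191 and 0.855 CPM, depending on depth. How reads at the positions shared with miR-486a-5p were assigned is not known, so this is no ceiling on its level. CPM are counts scaled to a library of 1000000 with sizes adjusted by TMM, a scaling that leaves out the most different miRNAs.

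The 5 erythroid miRNAs above the filter on low counts were minor species of liver. A mature miRNA of 20 to 23 bases is read whole, so counts were compared between miRNAs without division by length. How evenly different sequences were captured in the libraries is not known. Orders and ratios between miRNAs are therefore of counts, not of molecules. Among 370 tested miRNAs the mean level ranked 111 for miR-486a-5p, 134 for miR-144-5p, 142 for miR-144-3p, 175 for miR-451a and 251 for miR-486b-5p. All 7 names together summed to 231, 391 and 267 CPM in females and to 272, 289 and 242 CPM in males. The hepatocyte miRNA miR-122-5p stood at 315480, 315560 and 316480 CPM in females against 343500, 387290 and 361450 CPM in males, and miR-101a-3p at 8592 to 12878 CPM.

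The order of the 5 was the same in each of the 6 libraries, although neighbours in it lay close. The range of miR-451a lay wholly above that of miR-486b-5p, and the other neighbouring ranges overlapped. Within a library, counting intervals of miR-144-5p and miR-144-3p were separate in 2 of 6, and those of the other 3 neighbouring pairs in 5 of 6. Counting intervals are exact Poisson intervals at 95%; they cover counting error only, since PCR copies are not independent molecules.

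**Figure D1:**
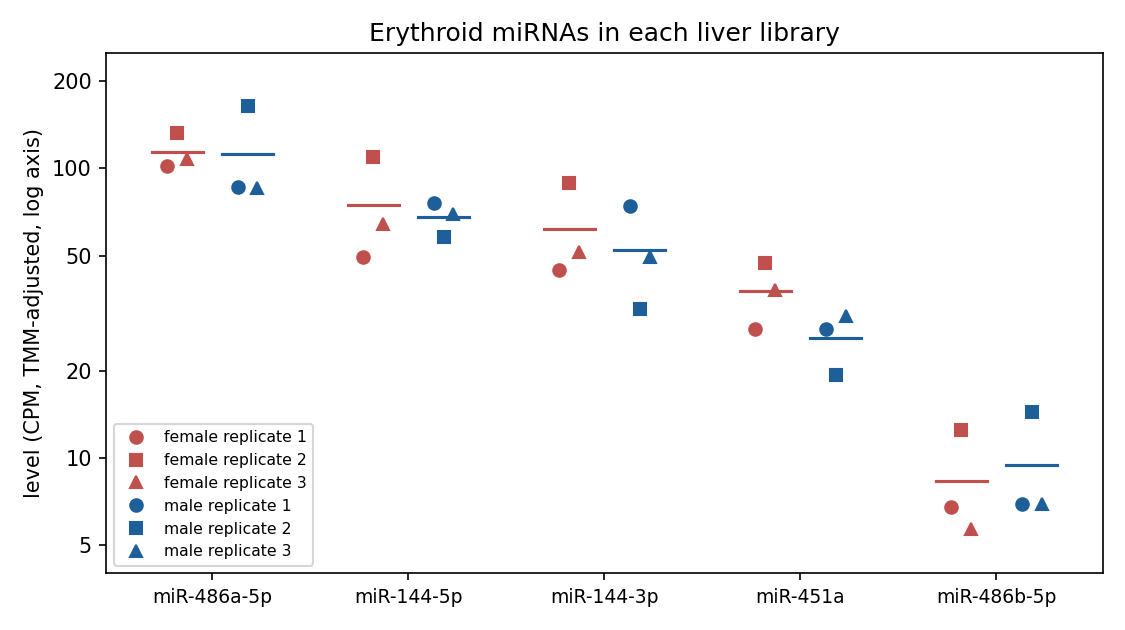
Level of each erythroid miRNA (CPM with TMM-adjusted sizes, log axis) in the 3 female and 3 male libraries; points are libraries and bars are means. Female and male points overlap for each of the 5 miRNAs, from 5.70 CPM (miR-486b-5p, female replicate 3) to 165 CPM (miR-486a-5p, male replicate 2).

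The AGO2 product miR-451a stood at 27.9, 47.1 and 37.9 CPM in females against 27.9, 19.4 and 30.9 CPM in males. The lowest female library lay level with male replicate 1 and below male replicate 3, so the groups overlapped, while female animals were higher in 8 of the 9 female-male pairs. Its mean was 37.6 ± 9.58 CPM in female liver and 26.0 ± 5.97 CPM in male liver (SD, n = 3 each). The log2 fold change was 0.51 (SE 0.25, 95% interval -0.05 to 1.07; adjusted p = 0.32, edgeR quasi-likelihood test, adjusted over all 370 by Benjamini-Hochberg), which did not pass the threshold of 0.05. As a ratio this is 1.42-fold, with an interval of 0.968 to 2.09. An exact two-sided permutation test on log2 CPM gave p = 0.2, where 3 animals against 3 cannot go below 0.1. At an unadjusted p the test of miR-451a gave 0.0691 in edgeR, and 18.1% of all tested miRNAs had an unadjusted p under 0.05.

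The 3p arm of miR-144 stood at 44.4, 88.9 and 51.3 CPM in females against 74.4, 32.8 and 49.4 CPM in males. Female replicate 2 was the highest of all and male replicate 2 the lowest, with the rest interleaved. Its log2 fold change was 0.23 (SE 0.32, 95% interval -0.47 to 0.93; adjusted p = 0.786, edgeR). The 5p arm stood at 49.6, 110 and 64.2 CPM in females against 76.1, 58.1 and 69.3 CPM in males. Here too female replicate 2 was the highest, but female replicate 1 was the lowest, and the males lay between. Its log2 fold change was 0.13 (SE 0.27, 95% interval -0.46 to 0.71; adjusted p = 0.848, edgeR).

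The Ank1 intronic miR-486a-5p stood at 102, 133 and 107 CPM in females against 86.4, 165 and 85.2 CPM in males. Male replicate 2 was the highest library and the other 2 males were the lowest, below each female. Its log2 fold change was 0.03 (SE 0.25, 95% interval -0.53 to 0.58; adjusted p = 0.963, edgeR). The opposite-strand miR-486b-5p stood at 6.77, 12.5 and 5.70 CPM in females against 6.97, 14.4 and 6.92 CPM in males. Replicate 2 of each sex was high and the other 4 libraries lay close together. Its log2 fold change was -0.14 (SE 0.37, 95% interval -0.95 to 0.67; adjusted p = 0.894, edgeR). How reads matching both 5p names were assigned is not known here, so the division of counts between miR-486a-5p and miR-486b-5p is uncertain too, and with it their separate levels, ranks, folds and correlation. Summed to 1 feature, they had a log2 fold change of -0.0030 (adjusted p = 0.997, edgeR). As deposited, the share of miR-486b-5p in the summed 5p counts was 6.63 ± 1.80% in females and 7.67 ± 0.33% in males (SD, n = 3 each).

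None of the 5 tested erythroid miRNAs passed the threshold, beside 6.76% of all 370 tested miRNAs, 3.24% higher and 3.51% lower in females. At an unadjusted p under 0.05 the number was 0 of 5 in edgeR, and it was also 0 after adjustment and 0 unadjusted in both the DESeq2 Wald test and limma-voom. In other edgeR fits the unadjusted p of miR-451a was under 0.05, at 0.0322 with no TMM factor, 0.0433 with no filter, 0.0249 without female replicate 1 and 0.0444 without male replicate 3, with adjusted p from 0.166 to 0.626. None of the 5 had groups that did not overlap, beside 21.6% of all tested. The log2 fold change was positive for 4 of 5, beside 48.1% of all tested, with a median of 0.13 against -0.01 over all tested miRNAs. The 5 come from 2 loci and are not separate cases. Among the positive ones, miR-486a-5p, at 0.03, was at -0.0030 when summed with miR-486b-5p. The other 2 of the 7 were too low to be tested. The intervals of the 5 tested miRNAs reach from a 0.519-fold to a 2.09-fold difference at their widest, and differences inside these intervals could not be told from none with 3 animals a sex.

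**Figure D2:**
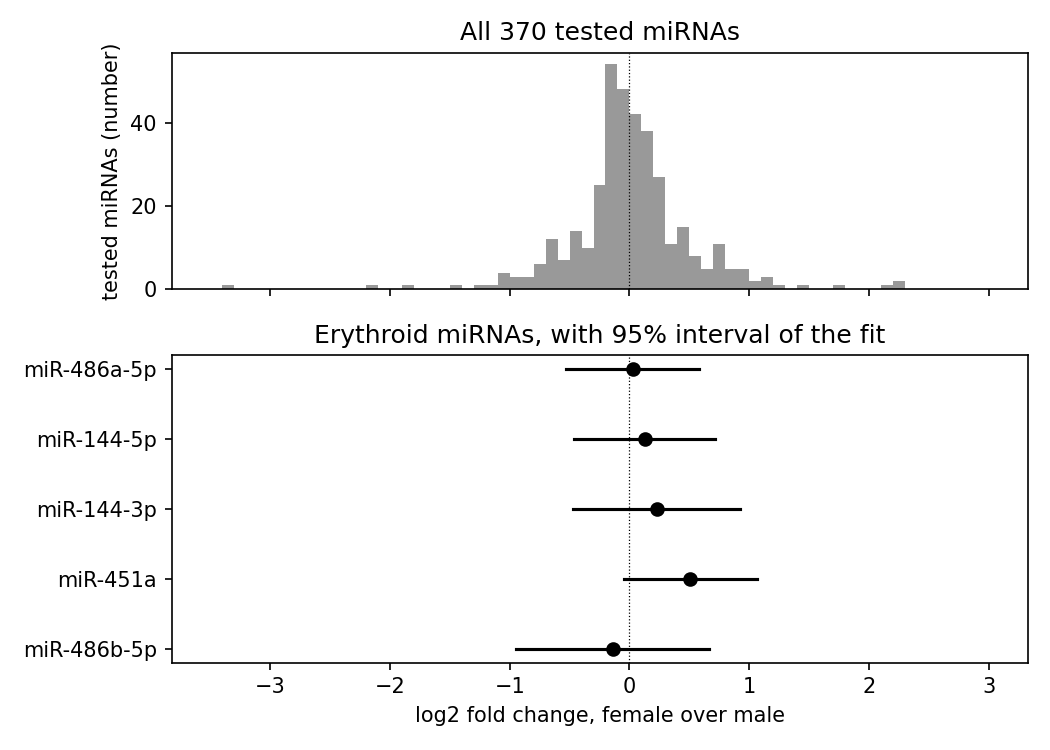
Upper panel: number of tested miRNAs by log2 fold change, female over male; lower panel: the 5 erythroid miRNAs with the 95% interval of the edgeR fit. Each interval crosses 0, and miR-451a, at 0.51, comes closest to leaving it, with a lower bound of -0.05.

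Male replicate 2 decided several of these values. Without it, the log2 fold change of miR-486a-5p was 0.41 (unadjusted p = 0.0242, adjusted p = 0.202, edgeR), against 0.03 with all libraries. That of miR-451a was 0.34 (adjusted p = 0.413, edgeR), of miR-144-3p -0.01, of miR-144-5p 0.02 and of miR-486b-5p 0.24. Female replicate 2 weighed on the miR-144 arms in the same way. Without it, miR-144-3p stood at -0.14, miR-144-5p at -0.27, miR-451a at 0.30, miR-486a-5p at -0.10 and miR-486b-5p at -0.53. None of these passed. The library titles number the males before the females. Whether these numbers give an order of processing is not stated, and if they do, that order and sex cannot be told apart.

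The 2 loci did not rank the libraries alike. The miR-144 and miR-451a products summed to 122, 246 and 153 CPM in females against 178, 110 and 150 CPM in males. The miR-486 products summed to 109, 145 and 113 CPM in females against 93.7, 179 and 92.2 CPM in males. Female replicate 2 was high for both loci, whereas male replicate 2 had the highest miR-486 sum and the lowest miR-144 and miR-451a sum of the 6. The miR-144 and miR-451a share of the erythroid counts was 38.1% in male replicate 2 and between 52.9% and 65.6% in the other 5 libraries. In male replicate 2 miR-122-5p was also highest of the 6 libraries, and its part in these levels was not tested.

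**Figure D3:**
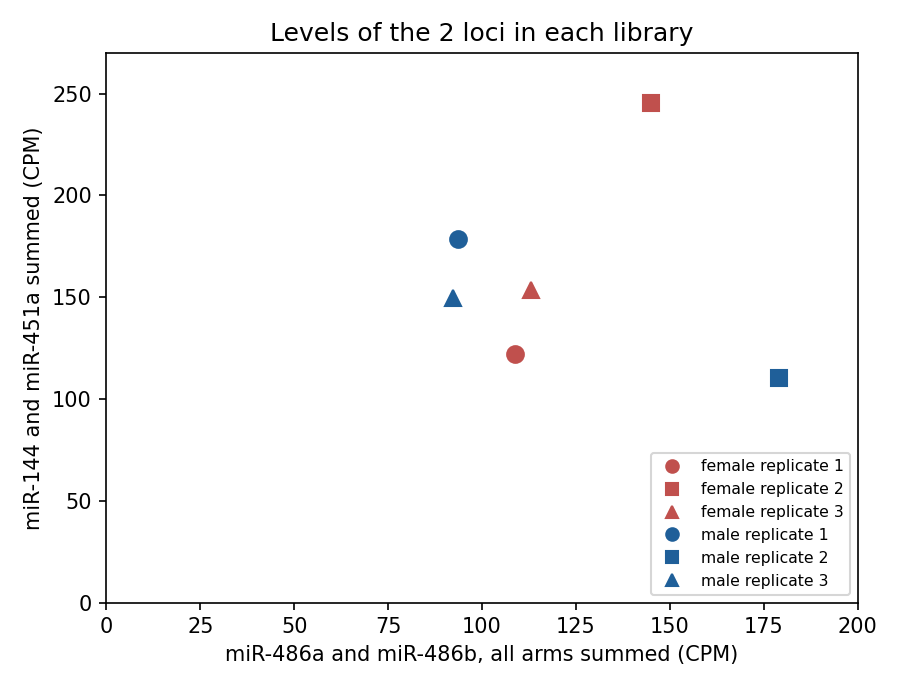
Summed CPM of the miR-144 and miR-451a products (vertical axis) against summed CPM of the miR-486 products (horizontal axis), 1 point per library. Male replicate 2 lies at the lower right (179 and 110 CPM) and female replicate 2 at the top (145 and 246 CPM).

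Ratios within a library are free of the scaling between libraries. The count of miR-486a-5p was 3.62, 2.81 and 2.82 times that of miR-451a in females against 3.09, 8.41 and 2.76 times in males. Male replicate 2 stood apart, and the other 5 libraries lay within 2.76 to 3.62. The mean log2 ratio was 1.61 ± 0.21 in females and 2.05 ± 0.89 in males (SD, n = 3 each; difference -0.44, exact two-sided permutation p = 0.7). Without male replicate 2 the difference was 0.07.

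The ratio of miR-144-3p, the Dicer product, to miR-451a, the AGO2 product of the same primary transcript, was 1.59, 1.88 and 1.35 in females against 2.66, 1.69 and 1.60 in males. The count of miR-144-3p was above that of miR-451a in all 6 libraries, and male replicate 1 had the highest ratio. The mean log2 ratio was 0.67 ± 0.24 in females and 0.95 ± 0.40 in males (SD, n = 3 each; difference -0.28, exact permutation p = 0.4). Without male replicate 1 the difference was -0.04.

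The counts of the arms of miR-144 were nearly balanced, with the 5p arm above the 3p arm in all 6 libraries. The 5p to 3p ratio was 1.11, 1.23 and 1.25 in females against 1.02, 1.76 and 1.40 in males. As a share of both arms, the 5p arm made up 63.9% in male replicate 2 (95% exact binomial interval 58.9 to 68.7%) and 50.6% in male replicate 1 (47.4 to 53.8%). These are the highest and lowest of the 6 libraries, and the intervals cover counting error only. The 3 females lay between 52.7% and 55.6%. The mean log2 ratio was 0.26 ± 0.09 in females and 0.45 ± 0.39 in males (SD, n = 3 each; difference -0.19, exact permutation p = 0.5), and without male replicate 2 the difference was -0.00055. Adjusted over the 3 ratios tested, each p was 0.7. The ratio of the miR-486a arms could not be formed, because miR-486a-3p had no count in 4 libraries.

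**Figure D4:**
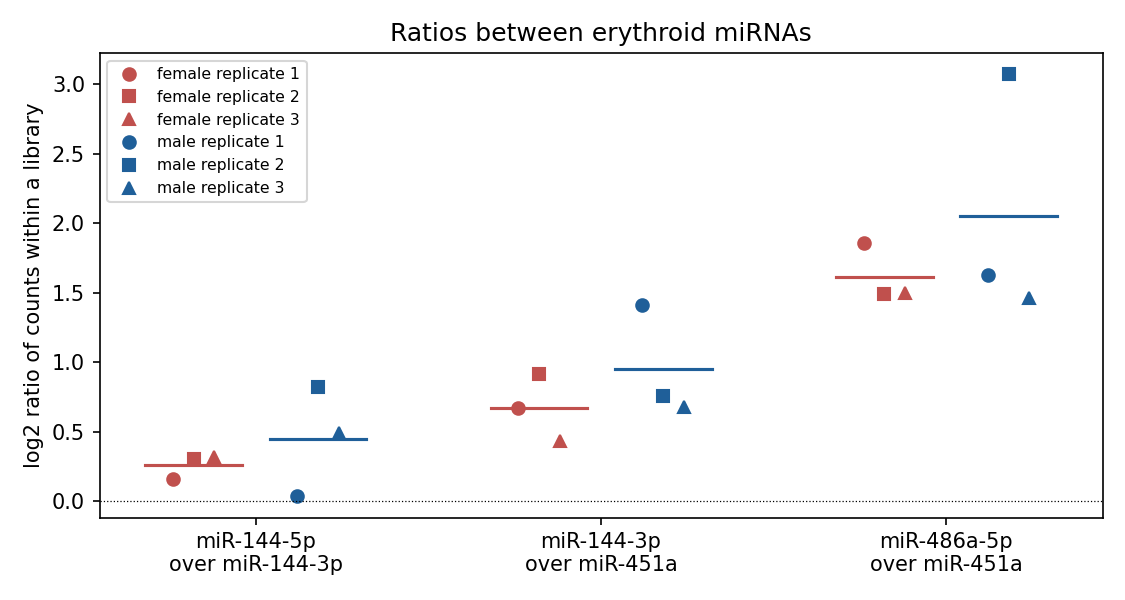
Log2 ratio of counts within each library (1 count added to each) for 3 pairs of erythroid miRNAs; points are libraries and bars are means, females left of males. The miR-486a-5p over miR-451a ratio of male replicate 2, at 3.07, lies above the other 5 libraries, which span 1.46 to 1.86.

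Across the 6 libraries the arms of miR-144 went together most closely among pairs from the miR-144 and miR-451a locus. Pearson's r of log2 CPM was 0.85 for miR-144-3p with miR-144-5p (exact permutation p = 0.0306, adjusted p = 0.306 over 10 pairs) and Spearman's rho was 0.89 (exact permutation p = 0.0333, adjusted p = 0.333). Without the 2 libraries farthest from the median of miR-144-3p, r was 0.79. For miR-451a with miR-144-3p, r was 0.77 (exact permutation p = 0.0611, adjusted p = 0.306) and rho 0.66 (exact permutation p = 0.175, adjusted p = 0.875). Without female replicate 2 and male replicate 2, the libraries farthest from the median of miR-451a, r became -0.24 over the 4 left. Leaving out the extremes narrows the range of miR-451a, so this value cannot decide how far the pooled relation rested on those 2 libraries. With the mean of each sex removed, r was 0.82 for miR-451a with miR-144-3p (rho 0.89), and 0.46 without female replicate 1 and male replicate 2. By the same measure r was 0.85 for miR-451a with miR-144-5p (rho 0.94), and 0.79 without female replicate 1 and male replicate 2. No p is given for this measure. Deviations from the mean of a sex are tied to each other, so libraries cannot be freely exchanged between the sexes in a permutation test. With all libraries and both sexes pooled, miR-451a with miR-144-5p had an r of 0.69 (exact permutation p = 0.128, adjusted p = 0.319) and a rho of 0.49 (exact permutation p = 0.356, adjusted p = 0.889), and an r of 0.10 without female replicate 2 and male replicate 2.

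For miR-486a-5p with miR-486b-5p, r was 0.85 (exact permutation p = 0.0972, adjusted p = 0.319) and rho 0.49 (exact permutation p = 0.356, adjusted p = 0.889), and r was -0.81 without female replicate 2 and male replicate 2. Between the loci, r was -0.21 for miR-451a with miR-486a-5p (exact permutation p = 0.689, adjusted p = 0.861; rho -0.03, exact permutation p = 1, adjusted p = 1), and 0.56 without the same 2 libraries. None of the 10 pairs passed after adjustment with both sexes pooled. All pairs share their libraries and depths.

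With both sexes pooled, the 5 miRNAs closest to miR-451a across the 6 libraries, outside the erythroid names, came mostly from another locus. By Pearson's r of log2 CPM, given as a description, the 5 closest were miR-376b-3p (0.98), miR-136-5p (0.97), miR-122-3p (0.96), miR-377-3p (0.96) and miR-134-5p (0.95). Apart from miR-122-3p, the minor arm of the hepatocyte miR-122 hairpin, these belong to the imprinted Dlk1-Dio3 cluster. Of the 365 tested miRNAs outside the erythroid names, 51 had a higher r with miR-451a than miR-144-3p had, and 75 a higher one than miR-144-5p had. The most alike, miR-376b-3p, stood at 14.04, 47.6 and 39.1 CPM in females against 14.9, 8.03 and 18.2 CPM in males, so female replicates 2 and 3 were the high libraries, as for miR-451a. Over these 6 libraries 16 of the 365 exceeded an r of 0.9. All 5 had higher means in females, with log2 fold changes from 0.44 (miR-122-3p) to 1.23 (miR-376b-3p), none past the threshold. With the mean of each sex removed, a measure added after seeing the data, their r with miR-451a was 0.93 to 0.96. The 5 closest by that measure were let-7i-3p (0.98), miR-31-3p (0.97), miR-376b-3p (0.96), miR-450b-5p (0.95) and miR-15b-5p (0.95). Of these only miR-376b-3p was among the 5 closest with both sexes pooled. Their log2 fold changes ran from -0.49 (miR-450b-5p) to 1.23 (miR-376b-3p). With the mean of each sex removed, 38 of the 365 had a higher r than miR-144-3p and 32 a higher one than miR-144-5p.

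With all libraries, animals of a sex differed more in the erythroid miRNAs than in the median tested miRNA. The SD of log2 CPM within a sex, pooled over both sexes, was 0.36 for miR-451a, 0.41 for miR-486a-5p, 0.43 for miR-144-5p, 0.56 for miR-144-3p and 0.58 for miR-486b-5p, beside a median of 0.27 over the 370 tested miRNAs. These stand at percentiles 68.9, 75.7, 79.5, 91.9 and 93.8 of all tested, with no test. Single libraries set part of this spread. For miR-486a-5p it was 0.17 without male replicate 2, and for miR-144-5p 0.22 without female replicate 2. Both values lie below the median of 0.27 found with all libraries. Within each sex, the SD of miR-486a-5p was 0.20 in females and 0.54 in males. That of miR-144-5p was 0.58 in females and 0.20 in males. The low counts of miR-486b-5p, 20 to 109 per library, add counting error to its spread.

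**Figure D5:**
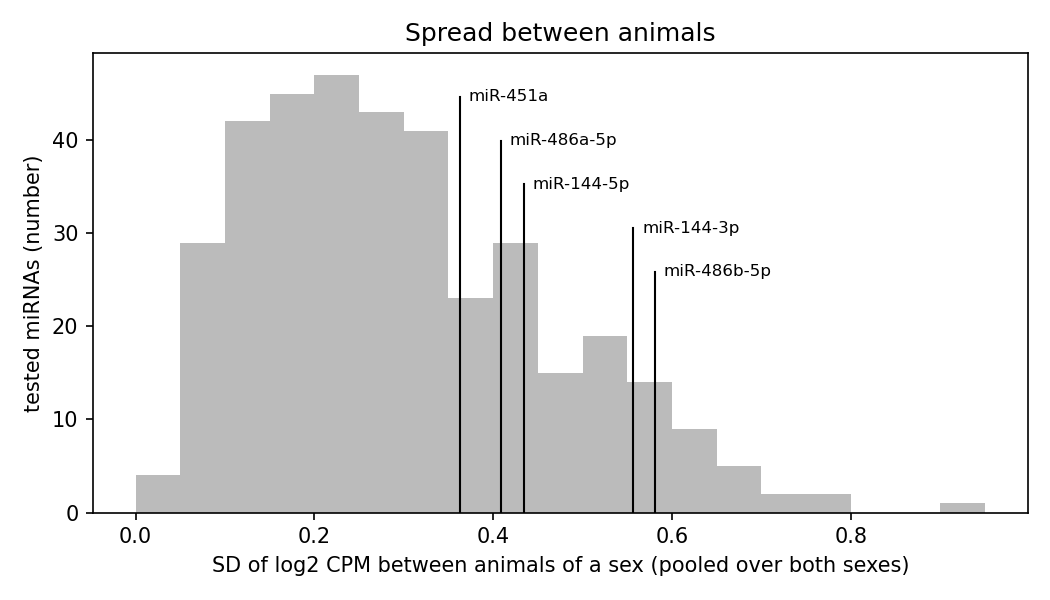
Number of tested miRNAs by the SD of log2 CPM between animals of a sex, with lines at the 5 erythroid miRNAs. All 5 lie to the right of the median of 0.27, at 0.36 to 0.58.

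Other miRNAs known to be abundant in red cells, which many cell types also make, were read as a list. Of 9 listed, 8 were tested and 0 passed in either direction, beside 6.76% of all tested. The log2 fold change was positive for 4 of the 8, beside 48.1% of all tested, with a median of -0.00012, so neither count stands apart from the background. The most abundant, miR-16-5p, which targets cell cycle genes, stood at 54606, 55531 and 54142 CPM in females against 48762, 56528 and 50316 CPM in males (log2 fold change 0.08, adjusted p = 0.672, edgeR). Log2 fold changes of miR-93-5p (0.16), miR-25-3p (-0.08) and miR-19b-3p (-0.08), all from miR-17 family clusters, did not pass either. Of 5 miRNAs known to fall as red cells mature or linked to early progenitors, 1 passed, beside 6.76% of all tested. All 5 were positive, beside 48.1% of all tested, with a median of 0.25 against -0.01 over all tested miRNAs. The one that passed, miR-223-3p, which is also a myeloid miRNA, was higher in females at 322 ± 56.6 CPM against 209 ± 13.7 CPM in males (SD, n = 3 each; log2 fold change 0.62, adjusted p = 0.0467, edgeR). The others included miR-221-3p, known in human erythroid precursors as a restraint on the KIT receptor, at 0.03, miR-150-5p at 0.35 and miR-155-5p at 0.25. Because miR-223-3p, miR-150-5p and miR-155-5p are also among the leukocyte markers read below, the lists are not separate.

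Markers of other cells give the setting of these levels. The 8 leukocyte markers summed to 7009 to 7244 CPM in females against 5360 to 6823 CPM in males, without overlap in sum. All 8 log2 fold changes were positive, beside 48.1% of all tested, and 1 passed, beside 6.76% of all tested. Singly, miR-223-3p and miR-150-5p did not overlap between the sexes and the others did, beside 21.6% of all tested miRNAs without overlap. The most abundant, miR-142a-3p, was highest in male replicate 1, at 3252 CPM. The part of white cells in the erythroid values was not tested. The 4 hepatocyte markers summed to 370310 to 373940 CPM in females against 396790 to 440400 CPM in males, also without overlap in sum. This sum is carried by miR-122-5p, itself without overlap (log2 fold change -0.21, adjusted p = 0.053, edgeR). The other 3 markers overlapped and were positive, at 0.02 for miR-192-5p, 0.17 for miR-194-5p and 0.44 for miR-122-3p. None of the 4 passed the threshold. The 2 endothelial markers summed to 67777 to 71815 CPM in females against 68763 to 76034 CPM in males. Because miR-486 is also a muscle miRNA, 7 markers of skeletal and heart muscle were read. They summed to 17.7 to 36.5 CPM in females against 19.1 to 35.1 CPM in males. Most of this was miR-1a-3p, at 23.3 ± 8.85 CPM in female liver and 22.5 ± 7.45 CPM in male liver (SD, n = 3 each). The muscle markers miR-208a-3p and miR-208b-3p were at 0 in every library, and miR-133a-3p was at 0.724 ± 0.334 CPM in female liver and 0.743 ± 0.191 CPM in male liver (SD, n = 3 each). The muscle sum was 36.5 CPM in female replicate 2 and 19.1 CPM in male replicate 2, the 2 libraries highest for miR-486a-5p. The part of muscle RNA in the miR-486 values was not tested.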

How the data were processed

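The authors deposited 1 table of estimated counts per mature miRNA, not normalised, made with Partek and Bowtie on mm10 per the submitters' processing notes; the sources used here give no versions, trimming or treatment of multiply matching reads. Of 2045 rows, 138 exact repeats were left out. Of the deposited values 98.9% were whole; counts were rounded, which moved no tested erythroid total by more than 0.0777%. Stop positions were read as the base after the end. Libraries were grouped by labelled sex, and replicates were numbered in accession order.

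Females and males were compared with the edgeR 4.0.16 quasi-likelihood test in R 4.3.3 (TMM, filterByExpr by sex with a minimum count of 10 and total of 15, robust option), with Benjamini-Hochberg adjustment over 370 miRNAs; the code was tested on simulated data. Log2 CPM used a prior count of 2. Ratios, correlations and exact tests used scipy 1.17.1. Alternatives were other scalings, filters and tools (DESeq2 1.42.0, limma 3.58.1), summed identical sequences and leaving out each library. All 7 erythroid names were described, and other miRNAs were named by fixed lists or by likeness to miR-451a. Members and lists were chosen with earlier results of these data known.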

Additional observations from a re-analysis of the deposited data

How the results depend on the processing

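The number of erythroid miRNAs past the threshold was 0 with all libraries, in each of the 9 other fits on all libraries and in each of the 6 fits without a library. Of 74 alternative log2 fold changes, 62 kept their direction and 12 changed sign, none past the threshold in any fit. The log2 fold change of miR-451a kept its sign in all 15 alternatives (adjusted p 0.166 to 0.764, edgeR, DESeq2 and limma). Sign changes were, for miR-486a-5p, -0.063 with upper-quartile factors, -0.0027 with the filter of 50 counts, -0.0030 with miR-486a and miR-486b summed, and -0.10, -0.14 and -0.14 without female replicate 2, male replicate 1 and male replicate 3. For miR-486b-5p they were 0.0017 with no TMM factor, 0.047 without female replicate 3 and 0.24 without male replicate 2. Leaving out female replicate 2 gave -0.14 for miR-144-3p and -0.27 for miR-144-5p, and leaving out male replicate 2 gave -0.014 for miR-144-3p. Without a library the log2 fold changes ran from -0.14 to 0.53 for miR-144-3p, -0.27 to 0.33 for miR-144-5p, 0.30 to 0.67 for miR-451a, -0.14 to 0.41 for miR-486a-5p and -0.53 to 0.24 for miR-486b-5p. The median over all tested miRNAs, -0.01, was 0.13 with no TMM factor and -0.10 with upper-quartile factors. For the remaining sign changes the cause was not tested. Over all tested miRNAs 25 passed, 20 to 31 in the other fits on all libraries and 9 to 32 without a library (female replicate 2 left out, 9; female replicate 3, 10; male replicate 3, 12). Without a library, differences of log2 ratios ran from -0.74 to 0.069 for miR-486a-5p over miR-451a (0.069 without male replicate 2), -0.41 to -0.045 for miR-144-3p over miR-451a and -0.39 to -0.00055 for the miR-144 arms. Without the 2 libraries farthest from the median, r changed sign for miR-451a with miR-144-3p (-0.24) and miR-486a-5p (0.56), miR-144-3p with miR-486b-5p (0.24), miR-144-5p with miR-486a-5p (-0.91) and miR-486b-5p (-0.66), and miR-486a-5p with miR-486b-5p (-0.81); with upper-quartile factors it did for miR-144-5p with miR-486a-5p (-0.069). No paired analysis was possible because replicate numbers were given in accession order and pair no animals. Depth and the unknown assignment of reads between overlapping names limit miR-486a-3p and miR-486b-3p, which were too low to test.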
